A study of Mus musculus with 15 samples.

Results

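The central major urinary protein genes are 10 closely related genes of the Mup cluster on mouse chromosome 4, and they were taken by symbol from the count table as Mup1, Mup2, Mup7, Mup9, Mup10, Mup11, Mup12, Mup14, Mup15 and Mup17. They are 10 of the 55573 genes in the table, and all 10 were among the 17655 genes with enough reads to be tested. Their RNA was compared in the livers of 15 mice, each 8 weeks old and each with 1 library, from the line B6N(Cg)-Esr1tm4.2Ksk/J. WT mice of this line numbered 3 per sex. ESR1KO mice, 5 females and 4 males, were homozygous for an allele that lacks exon 3 of Esr1, the gene for estrogen receptor alpha. The deletion is in every tissue and not restricted to hepatocytes, and the study notes that testosterone is raised in ESR1KO mice of both sexes, so loss of the receptor and the altered hormones cannot be told apart in these groups.

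Major urinary proteins are lipocalins, small secreted proteins with a pocket that holds volatile pheromones. Hepatocytes make them in large amounts, the kidney passes them into the urine, and mice read them as scent signals. Male mice usually make far more than females, and transcription is known to depend on the pulses of growth hormone that act through STAT5B, with androgen and thyroid hormone as further inputs. The genes in the middle of the cluster arose by recent duplication, while genes at its edges, such as Mup3, Mup20 and Mup21, have diverged further.

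The 10 genes lie on the minus strand of chromosome 4 in GRCm38, from Mup7 at chr4:60066469-60070475 to Mup17 at chr4:61595871 as its last base, within a cluster of 22 protein-coding Mup genes. Each has 7 exons and a transcript of 909 to 930 bases in GENCODE M21. Coding sequences were 540 bases long in 8 of the genes, 543 in Mup11 and 705 in Mup9. The median coding identity over the 45 pairs was 98.9%. The 9 pairs with Mup9 had 75.9 to 76.3%, and the 36 pairs without it had 98.3 to 99.6%. Gaps counted as differences, so the low values with Mup9 reflect its longer annotated coding sequence and not only unlike bases. Over whole transcripts, where gaps also counted, Mup9 stood apart too. It had 88.3 to 89.2% identity with the others, and pairs without it had 98.0 to 99.5%. Variable positions were counted only in coding exons of the same length in all 10 genes, and the other coding exons were not compared in this way. Of those counted, exon 2 held 6 variable positions and exons 3, 4 and 5 held 1 each. So 120 bases of exon 2 are shown here to let a reader see how little separates, over this stretch, genes whose levels differed widely. Mup1 carries the most common base at each of these positions, and Mup2, Mup9, Mup11, Mup12 and Mup15 have the same 120 bases. Capitals mark bases unlike the most common one. The stretches are chr4:60501292-60501411 for Mup1, chr4:60069743-60069862 for Mup7, chr4:60581531-60581650 for Mup10, chr4:61303332-61303451 for Mup14 and chr4:61595203-61595322 for Mup17, all GRCm38, minus strand and coding.
Mup1: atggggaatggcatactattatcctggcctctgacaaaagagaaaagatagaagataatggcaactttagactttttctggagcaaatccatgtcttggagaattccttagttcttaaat
Mup7: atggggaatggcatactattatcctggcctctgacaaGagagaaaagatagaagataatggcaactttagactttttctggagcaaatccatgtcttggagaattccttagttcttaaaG
Mup10: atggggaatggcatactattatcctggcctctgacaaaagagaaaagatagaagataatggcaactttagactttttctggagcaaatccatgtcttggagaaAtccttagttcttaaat
Mup14: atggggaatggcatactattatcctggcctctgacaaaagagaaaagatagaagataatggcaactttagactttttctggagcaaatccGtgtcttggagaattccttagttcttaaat
Mup17: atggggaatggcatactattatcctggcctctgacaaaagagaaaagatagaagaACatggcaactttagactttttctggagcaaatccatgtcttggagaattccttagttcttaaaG

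This likeness bears on every value per gene. Of all 100-base windows in a transcript, the share found in no other gene's transcript was 40.6% for Mup17, 22.5% for Mup12, 16.5% for Mup11, 12.9% for Mup7, 12.8% for Mup1 and 8.60% for Mup14. It was only 2.66% for both Mup2 and Mup15. How the counting treated reads that match several genes is not given in the sources used here, so reads may have been lost or shared between these genes. The level of a single gene is therefore uncertain, and the sum of the 10 is given beside it. Windows were compared with transcripts and not with the genome.

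Promoters were available from RefSeq for 8 of the 10 genes, all but Mup1 and Mup12. A run of 35 bases was shared by all 8, and among 32851 promoters of the same length it was found in 10, which were those 8 and the promoters of Mup6 and Mup19. It is shown in capitals for the 3 genes with the most counts, since these genes differed in how their levels moved between the groups. The stretches are chr4:60070447-60070591 for Mup7, chr4:60662473-60662617 for Mup11 and chr4:61595933-61596077 for Mup17, minus strand, GRCm38.p6.
Mup7: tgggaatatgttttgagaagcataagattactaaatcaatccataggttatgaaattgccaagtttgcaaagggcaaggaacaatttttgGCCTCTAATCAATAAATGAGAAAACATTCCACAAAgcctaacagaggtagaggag
Mup11: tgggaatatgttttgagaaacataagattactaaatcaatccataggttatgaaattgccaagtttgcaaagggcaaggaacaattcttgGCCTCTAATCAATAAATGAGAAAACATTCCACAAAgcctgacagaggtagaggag
Mup17: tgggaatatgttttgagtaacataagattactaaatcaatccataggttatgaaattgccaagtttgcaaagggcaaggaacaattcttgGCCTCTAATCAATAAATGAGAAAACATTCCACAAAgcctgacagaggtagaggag

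Over these 145 bases Mup7 differed from Mup11 at 3 positions and Mup17 differed from it at 1. Both strands of the promoters (250 bases before to 50 after the RefSeq start) were searched for motifs, of which 3 are given. The STAT5 motif TTCNNNGAA was in 8.30% of all promoters, TATAAA in 13.6% and the estrogen receptor palindrome GGTCANNNTGACC in 0.0700%, and 0 of the 8 held any of the 3. These letters are thus not in these windows. All of these promoters but that of Mup7 do hold TATATAAG, which the exact string TATAAA does not match. The windows are also not aligned with each other. The shared run starts 26 bases before the RefSeq start in Mup7 and 109 to 163 bases before it in the others, so the window of Mup7 ends sooner after the run. Absence of a TATA box thus cannot be read from this search.

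Libraries held between 27799061 and 78624766 counts. Esr1 RNA was 74.7 to 88.2 CPM (counts scaled to the size of the library, not corrected for gene length) in WT females and 9.67 to 19.7 in ESR1KO females, and it was 25.0 to 52.0 in WT males and 8.22 to 16.1 in ESR1KO males, so the groups did not overlap within a sex. A deletion of exon 3 can leave reads in other exons. Xist and 4 Y-linked genes matched the labelled sex of all 15 mice. Summed hepatocyte markers were 104483 to 111657 CPM in WT and 86836 to 111077 CPM in ESR1KO females, and 80627 to 81289 CPM in WT and 91001 to 99851 CPM in ESR1KO males. Most of this sum was Alb, with means of 86414 CPM in WT females and 54550 CPM in WT males. Its log2 fold change, females minus males, was 0.66 (adjusted p = 0.0382 by edgeR). The other hepatocyte markers went the other way, from -0.64 for Apoa1 to -0.05 for Hnf4a. The sum thus does not measure the share of hepatocytes, and the part of these markers in the results was not tested. Exocrine pancreas markers reached at most 1.01 CPM, with Pnlip and Prss2 at 0 in every mouse. Of 36 markers of 7 cell types, hepatocyte, Kupffer, endothelial, stellate, cholangiocyte, blood and pancreas, 33 were tested and 0 were called in any of 5 contrasts by edgeR; of the 165 tests, 8 passed the adjusted p alone and 39 had an unadjusted p under 0.05. One library stood apart for the genes described here: WT male 2 had the lowest level of the 3 WT males for all 10 genes. When it was left out, 8 of the 10 genes were called between the WT sexes and 9 between the male genotypes.

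The summed level of the 10 genes gives the overall picture. It was 144, 104 and 211 CPM in the 3 WT females, and 6803, 3187 and 6789 CPM in the 3 WT males. ESR1KO females had 636, 263, 178, 385 and 273 CPM, and ESR1KO males had 509, 576, 591 and 469 CPM. Every ESR1KO mouse lay below every WT male, and ESR1KO males lay above all WT females, while ESR1KO females overlapped both WT females and ESR1KO males. Mean levels of WT mice were 153 ± 54.1 CPM for females and 5593 ± 2084 CPM for males (SD, n = 3 each). Those of ESR1KO mice were 347 ± 178 CPM for females (SD, n = 5) and 536 ± 57.3 CPM for males (SD, n = 4). The mean of WT males was thus 36.6-fold that of WT females and 10.4-fold that of ESR1KO males, and the mean of ESR1KO females was 2.27-fold that of WT females. In ESR1KO mice the male mean was 1.54-fold the female mean. These folds depend on which genes are summed. Without Mup7, the gene with the most counts, the mean of WT males was 21.6-fold that of WT females and the mean of ESR1KO females was 1.21-fold that of WT females. With every Mup row summed, WT males had 4.83-fold the mean of WT females and 2.22-fold that of ESR1KO males, and among ESR1KO mice the female mean was the higher (1.15-fold). In bulk liver RNA, fewer cells of a type and less RNA per cell cannot be told apart.

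**Figure D1:**
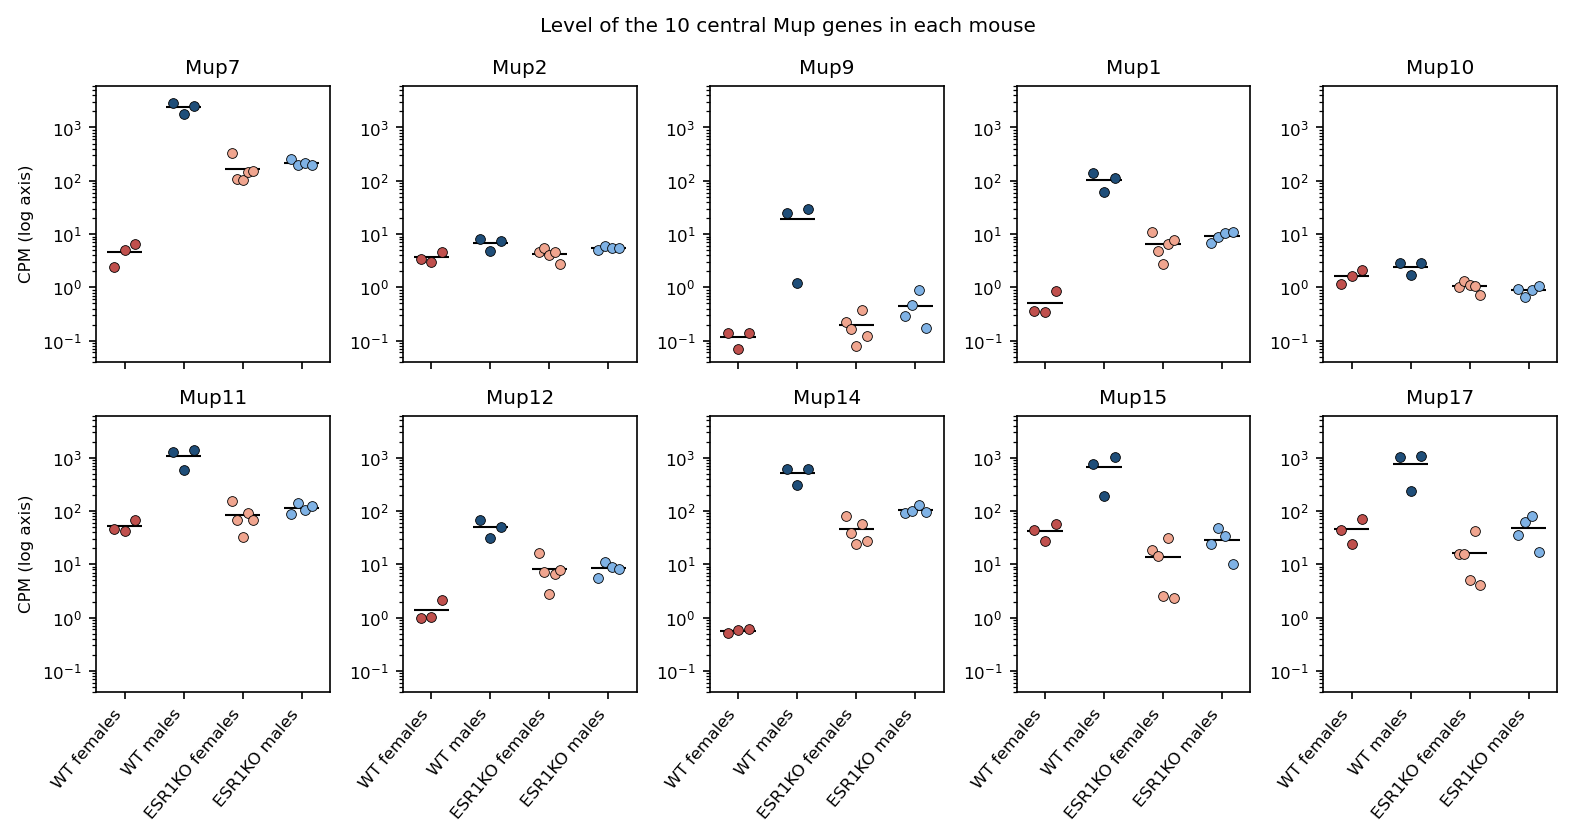
Level of each of the 10 genes in CPM (vertical log axis, the same in each panel) for each mouse, with genes in chromosome order, points for mice, horizontal lines for group means and 4 groups per panel. Mup7 in WT females sits between 2.39 and 6.46 CPM and in ESR1KO mice between 103 and 333 CPM, whereas Mup15 and Mup17 in ESR1KO females sit below or within the range of WT females.

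In WT liver, 8 of the 10 genes were called lower in females than in males, which here requires a log2 fold change of 1.5 or more in either direction with an adjusted p under 0.05 by edgeR's quasi-likelihood test. Over all genes tested, 0.912% were called lower in females. The fitted log2 fold changes (females minus males) of the 10 genes had a median of -4.77, beside 0.01 for all genes tested, and all 10 were negative. Levels of 9 of the 10 did not overlap between the sexes, and the exception was Mup10. Of all genes tested, 15.3% lay lower in females without overlap. Mean levels in WT females ran from 0.115 CPM for Mup9 to 51.7 CPM for Mup11.

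Mup7, Mup14, Mup1 and Mup12 were low in WT females and far higher in WT males. Mup7 measured 2.39, 4.98 and 6.46 CPM in WT females and 2912, 1767 and 2494 CPM in WT males. Its log2 fold change was -9.03 ± 0.54 (SE; adjusted p = 8.44e-09 by edgeR). Mup14 had the widest gap of the 10 genes, with 0.516, 0.576 and 0.619 CPM in females and 617, 306 and 613 CPM in males. Its log2 fold change was -9.81 ± 0.54 (SE; adjusted p = 3.38e-09 by edgeR). Mup1 stayed between 0.346 and 0.848 CPM in females and between 62.8 and 139.6 CPM in males, a log2 fold change of -7.68 ± 0.53. Mup12 reached 0.963 to 2.18 CPM in females and 31.3 to 66.8 CPM in males, a log2 fold change of -5.16 ± 0.54. Counts in the WT females were 30, 25 and 27 for Mup14, 21, 15 and 37 for Mup1, and 56, 45 and 95 for Mup12. The folds of Mup14, Mup1 and Mup12 thus rest on few reads in that group, which may include reads of other copies.

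Mup11, Mup15 and Mup17 were male-biased but plainly present in WT females. Mup11 measured 46.5, 41.5 and 66.9 CPM in females and 1255, 581 and 1404 CPM in males, a log2 fold change of -4.39 ± 0.47 (SE; adjusted p = 1.03e-05 by edgeR). Mup15 measured 43.3, 27.2 and 57.4 CPM in females and 749.9, 193 and 1020 CPM in males. Its log2 fold change was -3.94 ± 0.87 (SE; adjusted p = 0.0121 by edgeR), and the call was lost without WT female 1 (adjusted p = 0.0543) or WT female 2 (adjusted p = 0.0658). Mup17, at 44.7, 23.9 and 69.9 CPM in females and 1027, 239 and 1057 CPM in males, had a log2 fold change of -4.07 ± 0.83 (SE; adjusted p = 0.00670 by edgeR).

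Mup9, Mup2 and Mup10 had the fewest counts of the 10 genes in WT males. Mup9 was read 8, 3 and 6 times in the WT females, or 0.0692 to 0.138 CPM, and it measured 25.3, 1.22 and 30.1 CPM in the WT males. WT male 2 lay far below its 2 group mates and above all WT females. The log2 fold change of Mup9 was -7.31 ± 0.99 (SE; adjusted p = 0.000146 by edgeR) and -7.86 without WT male 2. Mup2 measured 2.97 to 4.56 CPM in females and 4.84 to 8.10 CPM in males. Its log2 fold change of -0.90 ± 0.23 passed the adjusted p (0.0279 by edgeR) but not the minimum fold, and it missed the adjusted p without any one of WT females 1 and 2 and WT males 1 and 3 (0.0895 to 0.140). Mup10, at 1.15 to 2.13 CPM in females and 1.69 to 2.82 CPM in males, had an adjusted p of 0.259.

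Between ESR1KO females and ESR1KO males, 0 of the 10 genes were called by edgeR, and 0 passed the adjusted p alone. Over all genes tested, 0.142% were called in either direction. At an unadjusted p under 0.05 there were 2, Mup14 and Mup17, and DESeq2 also called 0 at the minimum fold. Of the 10 genes, 9 had a lower fitted level in females. The median over the 10 was -0.48 on the log2 scale beside 0.01 for all genes. Mup14 was the only one of the 10 whose groups did not overlap, beside 2.66% of all genes tested that lay lower in females without overlap: 81.4, 39, 24.3, 55.7 and 27.7 CPM in the females against 90.3, 98.5, 128 and 93.8 CPM in the males. Its log2 fold change was -1.17 ± 0.29 (SE; adjusted p = 0.0902 by edgeR), and it passed the adjusted p under DESeq2 (0.00620), with no filter on low counts (0.00399) and without ESR1KO female 1 (0.0180). Mup17 differed by -1.57 ± 0.61 (SE; adjusted p = 0.213 by edgeR).

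In females, 4 of the 10 genes were called higher in ESR1KO than in WT, beside 0.708% of all genes tested, and 0 were called lower, beside 0.493%, by edgeR as by DESeq2. At an unadjusted p under 0.05, Mup10, Mup15 and Mup17 were lower. The 4 were Mup14, Mup7, Mup1 and Mup12. Mup9, Mup10 and Mup2 also had low levels in WT females, with means of 0.115, 1.64 and 3.66 CPM beside 4.61 CPM for Mup7. Their log2 fold changes of 0.72 ± 1.27, -0.66 ± 0.24 and 0.22 ± 0.21 did not pass the test (SE, adjusted p = 0.777, 0.114 and 0.572 by edgeR). With 3 to 8 counts of Mup9 per WT female, its test could miss a rise. Whether the level in WT females bears on the change was not tested. Mup14 rose from at most 0.619 CPM to the levels above, a log2 fold change of 6.32 ± 0.47 (SE; adjusted p = 2.96e-07 by edgeR). Mup7 measured 333, 107, 103, 147 and 151 CPM in ESR1KO females, and it rose by 5.20 ± 0.45 on the log2 scale (SE; adjusted p = 1.86e-06 by edgeR). Mup1, at 2.76 to 11.1 CPM in ESR1KO females, rose by 3.70 ± 0.47 (SE; adjusted p = 0.000134 by edgeR). Mup12, at 2.74 to 16.4 CPM, rose by 2.55 ± 0.48 (SE; adjusted p = 0.00479 by edgeR). The groups of these 4 genes did not overlap, beside 8.03% of all genes tested that lay higher in ESR1KO females without overlap. The median log2 fold change over all 10 genes was 0.70, beside -0.0013 for all genes tested.

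The 3 genes with the highest levels in WT females were not called. Mup11 measured 155, 69.0, 33.0, 90.7 and 69.1 CPM in ESR1KO females, a range that takes in all 3 WT females, with a log2 fold change of 0.69 ± 0.37 (SE; adjusted p = 0.290 by edgeR). Mup15 measured 18.3, 14, 2.53, 30.6 and 2.29 CPM. Its fitted level was lower than in WT females, by a log2 fold change of -1.65 ± 0.69, which did not pass the test (adjusted p = 0.165 by edgeR). Mup17 measured 15.4, 15.6, 5.06, 41.7 and 4.09 CPM, a log2 fold change of -1.497 ± 0.65 (adjusted p = 0.185 by edgeR), and without ESR1KO female 4 this was -2.21 (adjusted p = 0.0477). The values of Mup15 and Mup17 spread over more than a factor of 10 among the 5 ESR1KO females, and females 3 and 5 were lowest for both.

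**Figure D2:**
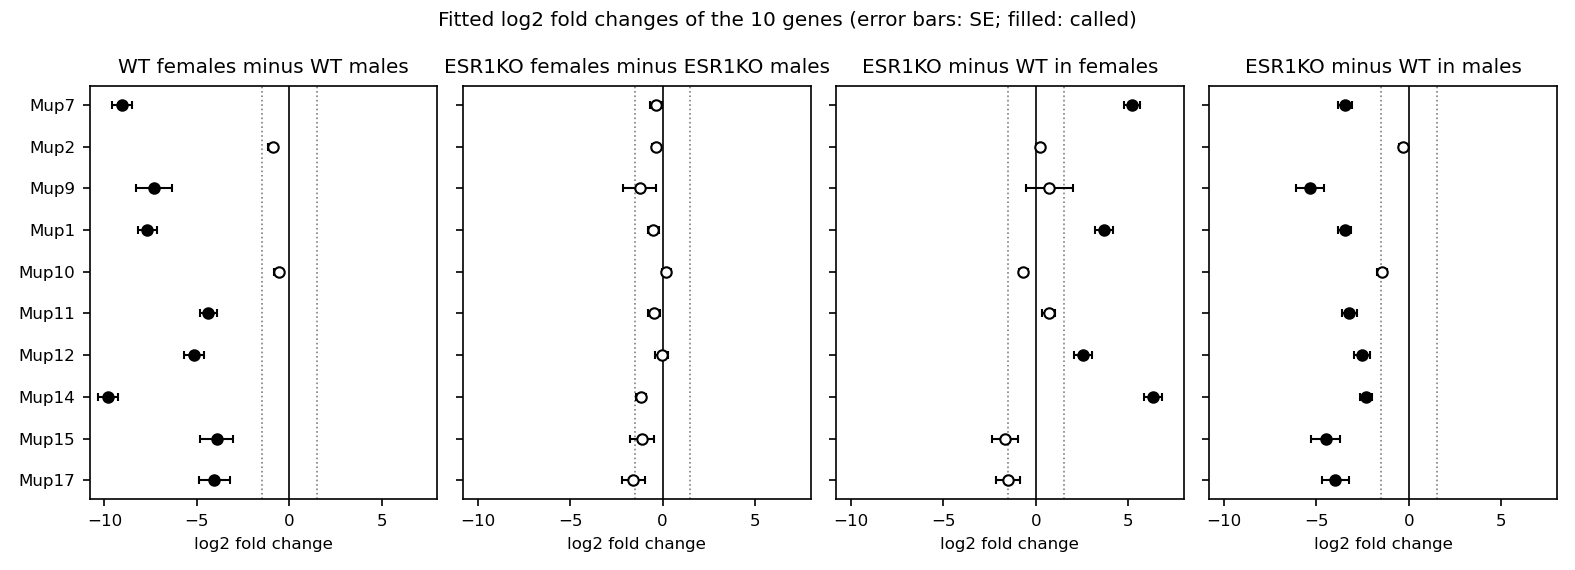
Fitted log2 fold changes (horizontal axis) of the 10 genes in chromosome order in 4 contrasts, with SE as error bars, filled points for called genes and dotted lines at -1.5 and 1.5. All 10 points are left of 0 in the WT sex contrast and in the genotype contrast of males, while in females they run from -1.65 for Mup15 to 6.32 for Mup14.

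In males, 8 of the 10 genes were called lower in ESR1KO than in WT, beside 0.261% of all genes tested. They were the same 8 symbols as in the WT sex contrast, and both contrasts use the same 3 WT males. All 10 fitted log2 fold changes were negative, with a median of -3.35 beside -0.0011 for all genes tested, and the groups did not overlap in 9 of the 10, beside 7.35% of all genes tested that lay lower in ESR1KO males without overlap. Mup7 fell to 252, 198, 216 and 197 CPM in ESR1KO males, a log2 fold change of -3.47 ± 0.37 (SE; adjusted p = 0.000111 by edgeR). Mup14 fell by 2.32 ± 0.33 on the log2 scale to the levels given above (adjusted p = 0.00189 by edgeR). Mup1 fell to 6.69 to 11 CPM, with the smallest adjusted p of the 10 genes (8.91e-05 by edgeR), and its log2 fold change was -3.48 ± 0.36. For Mup12, at 5.57 to 10.8 CPM in ESR1KO males, it was -2.55 ± 0.41. These 4 genes thus lay in ESR1KO males above all WT females and below all WT males.

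Mup15 and Mup17 fell in ESR1KO males to levels that overlapped those of WT females. Mup15 measured 24.3, 48.7, 33.3 and 9.93 CPM in ESR1KO males and fell by 4.49 ± 0.79 on the log2 scale (adjusted p = 0.00701 by edgeR). Mup17 measured 35.3, 62.0, 80.5 and 17.1 CPM and fell by 3.99 ± 0.73 (adjusted p = 0.00941 by edgeR). Against WT females, ESR1KO males had log2 fold changes of -0.55 for Mup15 (adjusted p = 0.707 by edgeR) and 0.08 for Mup17 (adjusted p = 0.969 by edgeR). Mup11, at 88.8, 142, 106 and 125 CPM, fell by 3.22 ± 0.40 (adjusted p = 0.000441 by edgeR) and stayed above all WT females. Mup9 was at 0.173 to 0.888 CPM in ESR1KO males, with a log2 fold change of -5.36 ± 0.74 (adjusted p = 0.00136 by edgeR) that moved to -5.91 when WT male 2 was left out and to -6.00 when ESR1KO male 3 was. Mup10, at 0.653 to 1.05 CPM, changed by -1.46 ± 0.25 (adjusted p = 0.00602 by edgeR), just under the minimum fold, and Mup2, at 4.95 to 6.06 CPM, by -0.30 ± 0.21 (adjusted p = 0.636 by edgeR).

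The genotype effect itself differed between the sexes for 6 of the 10 genes, beside 0.651% of all genes tested that were called in this direction. Subtracting the log2 effect of males from that of females gave 8.67 ± 0.59 for Mup7 and 8.64 ± 0.58 for Mup14 (SE; adjusted p = 1.78e-07 for both by edgeR). The difference was 7.18 ± 0.60 for Mup1, 5.10 ± 0.64 for Mup12, 3.91 ± 0.55 for Mup11 and 6.08 ± 1.45 for Mup9. The call for Mup9 (adjusted p = 0.0378 by edgeR) was lost when any one of 12 of the 15 mice was left out, with adjusted p from 0.0565 to 0.119. Mup15 and Mup17 had differences of 2.84 ± 1.03 and 2.49 ± 0.97 that did not pass (adjusted p = 0.226 and 0.264 by edgeR).

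The order of the levels was WT females, ESR1KO females, ESR1KO males, WT males for Mup1, Mup2, Mup7, Mup9, Mup11, Mup12 and Mup14. ESR1KO females and ESR1KO males, neighbours in that order, did not pass the test in any of these 7 genes. For Mup7, Mup14, Mup1 and Mup12 both other steps passed, and for Mup11 and Mup9 only the step from ESR1KO males to WT males did. For Mup15 and Mup17 the order was ESR1KO females, ESR1KO males, WT females, WT males, and only the last step passed. No neighbouring groups passed the test for Mup2 or Mup10.

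**Figure D3:**
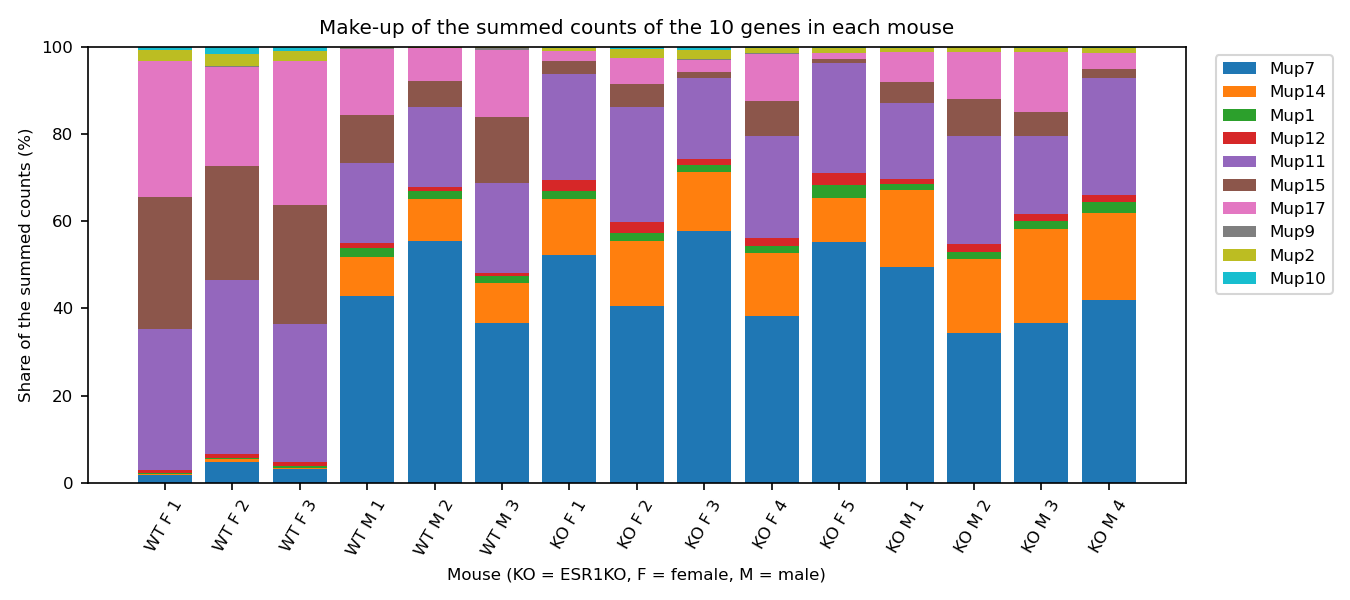
Share of each gene in the summed counts of the 10 genes (vertical axis, percent) in each of the 15 mice, one stacked bar per mouse. The 3 WT females differ from all other mice in having under 5% from Mup7 and over 22% each from Mup15 and Mup17.

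The make-up of the sum changed with the group as well as its size. Shares are of counts and not per length, but the transcripts differ little in length. They do differ in the share of 100-base windows found in no other gene's transcript, from 2.66% for Mup2 and Mup15 to 40.6% for Mup17. Shares thus depend on how reads were assigned and do not rank the true levels of the genes. Mup7 gave 36.7 to 55.4% of the summed counts in WT males, 34.3 to 49.5% in ESR1KO males and 38.2 to 57.7% in ESR1KO females, against 1.67 to 4.78% in WT females. Mup14 gave at most 0.553% in WT females, 9.03 to 9.58% in WT males, 17.1 to 21.7% in males without ESR1 and 10.1 to 14.8% in the females without it. Mup15 gave 26.1 to 30.2% in WT females and 0.839 to 7.95% in ESR1KO females. The share of Mup11 moved least among the genes with many counts, from a mean of 34.7% in WT females to 19.1% in WT males.

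The ratio of Mup15 plus Mup17 to Mup7, both in CPM, puts the contrast between these genes in one value per mouse. It was 36.8, 10.3 and 19.7 in WT females, and 0.610, 0.244 and 0.833 in WT males. In ESR1KO females it was 0.101, 0.277, 0.0737, 0.491 and 0.0423, and in ESR1KO males 0.236, 0.559, 0.527 and 0.137. All 9 ESR1KO mice were below all WT females. The ratio was chosen after the values were seen and is given without a test. Like the shares, it depends on how reads that match several genes were assigned.

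**Figure D4:**
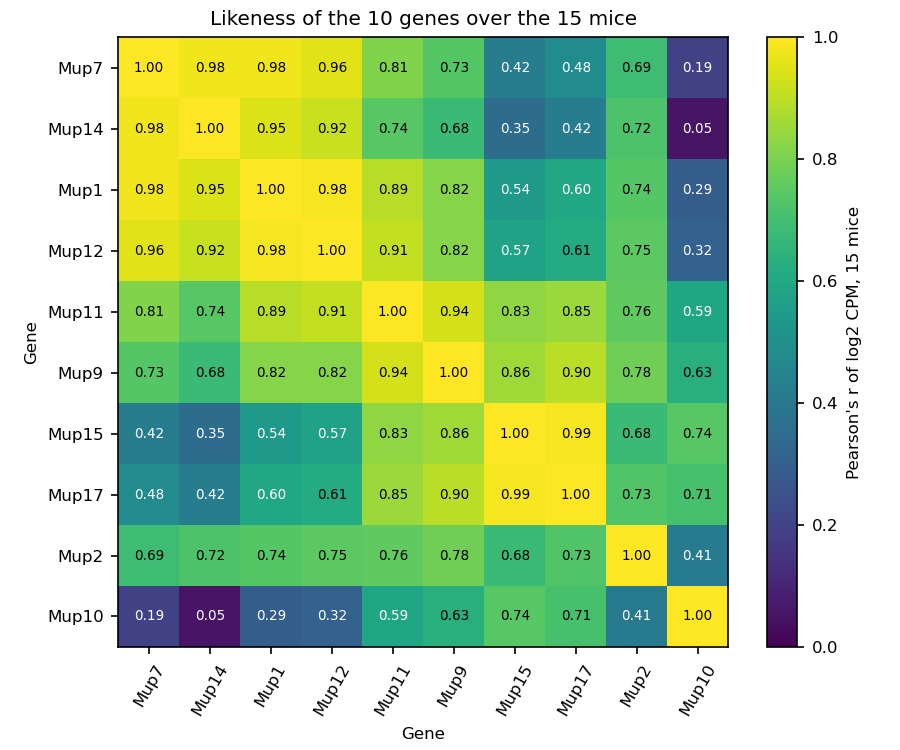
Pearson's r of log2 CPM between each pair of the 10 genes over the 15 mice, with genes on both axes and r written in each cell. Mup7, Mup14, Mup1 and Mup12 have r from 0.92 to 0.98 with each other, Mup15 has 0.99 with Mup17, and Mup11 has 0.74 to 0.94 with all of these and Mup9.

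Across the 15 mice, some of the genes had closely related log2 CPM values. Mup7, Mup14, Mup1 and Mup12 had Pearson's r of 0.92 to 0.98 with each other, and Mup15 had r = 0.99 with Mup17. Between these sets r was 0.35 to 0.61. Mup11 lay between them, with r of 0.74 to 0.91 with the first 4 genes and 0.83 and 0.85 with Mup15 and Mup17, and its highest r was with Mup9 (0.94). Mup10 had r between 0.05 and 0.74 with the other 9 genes. These values describe the mice, which fall into 4 groups, and genes of such likeness can share reads, so they carry no test. Likeness in coding sequence did not separate these sets. The 6 pairs among Mup7, Mup14, Mup1 and Mup12 differed at 2 to 6 coding positions and the 8 pairs of these with Mup15 or Mup17 at 3 to 8, while Mup15 and Mup17, with the highest r, differed at 8. Whole transcripts of these 4 were 98.7 to 99.4% identical. Mup15 had 99.0 to 99.1% with them, Mup17 98.0 to 98.6%, and Mup15 with Mup17 98.3%. Promoters, aligned over unequal lengths, had 98.7% for Mup15 with Mup17 and 98.1% for Mup7 with Mup14. With Mup15 and Mup17, Mup14 had 93.9 and 93.5% and Mup7 97.7% for both. Any link of sequence to levels was not tested.

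**Figure D5:**
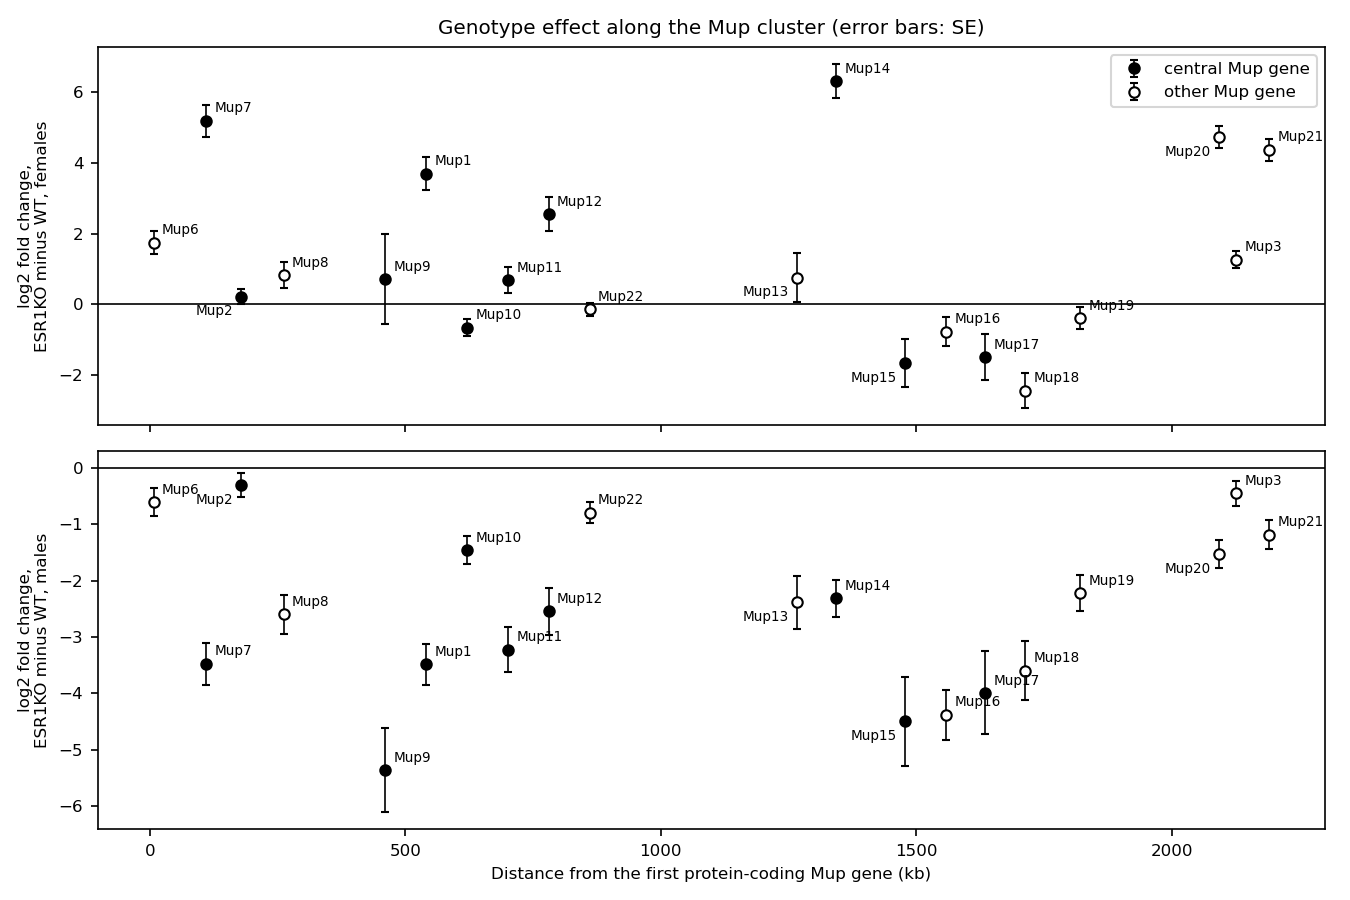
Fitted log2 fold change between ESR1KO and WT mice (vertical axes, females above and males below, SE as error bars) for the tested protein-coding Mup genes against distance in kb from the first of them, with filled points for the 10 central genes and open points for the others. In females the genes from Mup15 to Mup19 lie below 0 and Mup14, next to Mup15, lies at 6.32, while in males all points are below 0.

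Genes next to each other in the cluster changed unequally in females. Mup14, with the largest rise, starts 1343 kb from the first Mup gene, and its nearest protein-coding Mup neighbours among the tested genes are Mup13 at 1268 kb (log2 fold change of 0.76 ± 0.70) and Mup15 at 1479 kb (-1.65 ± 0.69). Mup7 at 110 kb and Mup2 at 179 kb had log2 fold changes of 5.20 and 0.22. Among the 39 other Mup rows, pseudogenes included, 22 were tested. Of these, 13 were called lower in WT females than in WT males, beside 0.912% of all genes tested. In ESR1KO females against WT females 4 were called higher (Mup6, Mup20, Mup21 and Mup-ps20), beside 0.708%. Another 4 were called lower (Mup18, Mup-ps10, Mup-ps12 and Mup-ps16), beside 0.493%, and all are named after their values were seen. In males 8 were called lower, beside 0.261%, and 0 higher. Between ESR1KO females and males 2 were called lower in females (Mup-ps7 and Mup-ps20), beside 0.142% of all genes called in either direction. The genotype effect of 7 was called higher in females than in males, beside 0.651%. Some of these rows had almost no counts in a group, such as Mup-ps20 in WT females (0 to 0.0461 CPM) and Mup-ps10 in ESR1KO females (0 to 0.103 CPM). Median log2 fold changes of the 22 rows were -2.58 between the WT sexes, -0.12 between ESR1KO and WT females and -1.09 between ESR1KO and WT males.

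The 3 other Mup genes with the highest levels lie at the far edge of the cluster. Mup3 was high in all groups, with means of 3267 ± 869.9 CPM in WT and 7872 ± 2458 CPM in ESR1KO females, and 8301 ± 866 CPM in WT and 6070 ± 272 CPM in ESR1KO males (SD). In ESR1KO females it passed the adjusted p but not the minimum fold (1.27 ± 0.23; adjusted p = 0.00341 by edgeR), as it did between the WT sexes (-1.35 ± 0.25; adjusted p = 0.00294 by edgeR). In males it did not pass (-0.45 ± 0.23; adjusted p = 0.461 by edgeR), and the difference of the genotype effects was called (1.72 ± 0.32; adjusted p = 0.00646 by edgeR). Mup20, which encodes darcin, the pheromone protein of male urine, measured 16.6 to 21.9 CPM in WT females and 322 to 695 CPM in ESR1KO females, a rise of 4.73 ± 0.30 on the log2 scale (SE; adjusted p = 3.22e-08 by edgeR). Mup21 rose by 4.37 ± 0.31 (SE; adjusted p = 1.51e-07 by edgeR). In males Mup20 had a log2 fold change of -1.52 ± 0.25 and was called, and Mup21 had -1.19 ± 0.26, under the minimum fold, beside -3.47 ± 0.37 for Mup7. Whether they differ from Mup7 was not tested. Together, all Mup rows took 0.263 to 0.416% of counts in WT and 0.655 to 1.35% in ESR1KO females, and 1.39 to 1.92% in WT and 0.724 to 0.783% in ESR1KO males. The 10 central genes were 22.8 to 38.99% of Mup counts in WT males and 2.60 to 8.01% in all other mice. These are percentages of counts as assigned to genes, and reads that match several genes may have been lost.

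Some regulators known to act on Mup transcription or on growth hormone signalling changed between the groups. Of the 23 listed, 7 had an unadjusted p under 0.05 by edgeR between the WT sexes and 8 between the ESR1KO sexes. Between ESR1KO and WT mice this held for 8 in females and 2 in males. Of 23 such genes, all tested, 2 were called higher in WT females than in WT males, beside 0.895% of all genes, and 0 lower by edgeR. They were Cux2, a female-specific repressor of male-biased liver genes, at 6.14 ± 0.60, and Prlr, the prolactin receptor, at 2.34 ± 0.27 (SE; adjusted p = 3.75e-06 and 2.15e-05 by edgeR). Esr1 passed the adjusted p below the minimum fold, higher in WT females (1.18 ± 0.28). Cux2 measured 35.5 to 57.9 CPM in WT females, 1.71 to 10.8 CPM in ESR1KO females and at most 0.840 CPM in any male. It fell by 3.32 ± 0.41 in ESR1KO females (SE; adjusted p = 8.78e-05 by edgeR) and was still called higher in ESR1KO females than in ESR1KO males (3.07 ± 0.50). Esr1 was the only other one called by genotype, in females at -2.64 ± 0.25 and in males at -1.62 ± 0.26. Prlr and Stat5a, a signal transducer of prolactin and growth hormone, passed the adjusted p in ESR1KO against WT females below the minimum fold, at -0.92 ± 0.22 and -0.84 ± 0.22 (adjusted p = 0.0253 and 0.0357 by edgeR), so that 4 of the 23 passed the adjusted p there, all lower in ESR1KO. Stat5b and Ghr, a further transducer and the receptor of growth hormone, had log2 fold changes between ESR1KO and WT females of -0.50 ± 0.17 (adjusted p = 0.0923) and 0.20 ± 0.12 (adjusted p = 0.326 by edgeR), and Stat5a, Stat5b and Ghr are named after their values were seen. Median log2 fold changes of the 23 genes were 0.04 between the WT sexes, -0.01 between ESR1KO and WT females and -0.10 between ESR1KO and WT males. In the difference of genotype effects 0 of the 23 were called by edgeR (4 at an unadjusted p under 0.05), and Cux2 had -3.07 ± 0.77 (adjusted p = 0.0523 by edgeR).

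Other secreted carriers of liver showed a mixed picture. Of 9, all tested, Obp2a, an odorant-binding lipocalin, was called lower in WT females (0 to 0.0229 CPM) than in WT males (0.333 to 2.22 CPM), with too few counts in females for a fold. It was called lower in ESR1KO than in WT males too, at -3.98 ± 0.66 (SE; adjusted p = 0.00489 by edgeR), and it was the one carrier called in the difference of genotype effects. Obp2a was at 0.0361 to 0.139 CPM in ESR1KO males and 0 to 0.151 CPM in ESR1KO females. Both of these calls thus rest on few counts as well. Orm3, an acute-phase orosomucoid, and Ptgds, a lipocalin that makes prostaglandin D, were called higher in WT females, at 3.08 ± 0.52 and 2.41 ± 0.36, and lower in ESR1KO than in WT females, at -2.89 ± 0.43 and -2.54 ± 0.31. Of all genes tested, 0.912% were called lower and 0.895% higher in WT females than in WT males. By genotype, 0.493% were called lower in ESR1KO females and 0.261% in ESR1KO males, and 0.651% had a called positive difference of genotype effects. The other 6, among them Lcn2, Rbp4 and Ambp, were called in none of the 5 contrasts. Medians of the 9 were -0.13 between the WT sexes, -0.57 between ESR1KO and WT females and -0.42 between ESR1KO and WT males. Of the 10 protein-coding genes that flank the Mup cluster, 5 on each side, 9 were tested and 0 were called or passed the adjusted p in any of the 5 contrasts by edgeR, with an unadjusted p under 0.05 in 5 of 45 tests.

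The 5 genes whose log2 CPM was most like that of the summed Mup genes over the 15 mice were Cyp7b1 (r = 0.93), Slc41a2 (r = 0.92), Aadat (r = 0.92), C4a (r = 0.91) and Serpina1e (r = 0.90), among 11622 genes compared. Cyp7b1, an oxysterol hydroxylase, measured 707 to 746 CPM in WT males, 38.0 to 72.4 CPM in WT females, 83.7 to 152 CPM in ESR1KO males and 69.4 to 156 CPM in ESR1KO females. Serpina1e, a serine protease inhibitor of plasma, ranged from 7521 to 9119 CPM, 895 to 1279 CPM, 1685 to 3422 CPM and 1348 to 3630 CPM in the same order of groups. In each of the 5 genes all WT males lay above all other mice. The r values are descriptions over mice of 4 groups.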

How the data were processed

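Total RNA of 15 mouse livers was depleted of ribosomal RNA, made into TruSeq libraries and sequenced paired-end (NovaSeq6000), with more reads added for some libraries. The authors trimmed reads with Trimmomatic 0.36, aligned them with STAR to GRCm38 and counted them per gene with HTSeq (0.6.0 per the labels). Strand setting, annotation release and the treatment of reads matching several genes are not given in the sources used here. The deposited table holds raw counts, without normalization.

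The counts were fitted with edgeR 4.0.16 under R 4.3.3 (filterByExpr, TMM scaling, quasi-likelihood F test, 1 mean per group, all 15 libraries). P values were adjusted by the Benjamini-Hochberg method across 17655 genes. Calls required an adjusted p below 0.05 with a log2 fold change of 1.5 or more in either direction. The SE was the log2 fold change divided by the square root of F. CPM used TMM factors of 0.957 to 1.04, and log2 CPM added a prior count of 2. Females were compared with males within each genotype, ESR1KO with WT within each sex, and the genotype effect of females with that of males. ESR1KO males were also compared with WT females where they were neighbours in the order of levels. Replicates are separate mice. The procedure was tested on simulated data with known changes. Precision rests on 27799061 to 78624766 counts per library. Error bars are the SE of a fitted log2 fold change, which rests on the spread between mice but does not show its range.

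The genes, lists and tests were chosen with earlier results of these data known. Besides the 10 genes, values are given for the 3 other Mup rows with the highest mean CPM, for called members of a list of regulators, a list of carriers and the 5 flanking genes on each side, and for the 5 genes with the highest r with the sum (mean log2 CPM of at least 1). Alternatives were DESeq2 1.42.0, other scalings, filters and fold limits, the compared groups alone, the replicate number as a block and each mouse left out. Sequence windows, identities and motifs were computed with Python 3.11.15 and Biopython 1.88 from GENCODE M21 transcripts and RefSeq promoters (GRCm38.p6). Proteins were not analysed here. A regulator and a motif are not reported here.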

Additional observations from a re-analysis of the deposited data

Results flagged for a closer look

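The effect of genotype differed between females and males for 6 of the 10 genes, by edgeR's test of the difference itself with Benjamini-Hochberg adjustment. Subtracting the log2 effect of males from that of females gave 8.67 for Mup7 (adjusted p = 1.78e-07), 8.64 for Mup14 (adjusted p = 1.78e-07), 7.18 for Mup1 (adjusted p = 1.87e-06) and 5.10 for Mup12 (adjusted p = 0.000166). These 4 genes were called higher in ESR1KO females and lower in ESR1KO males, and their groups did not overlap in either sex. For Mup11 the difference was 3.91 (adjusted p = 0.000542), with a change in females that was not called (0.69) and a called change of -3.22 in males. For Mup9 it was 6.08 (adjusted p = 0.0378), with 3 to 18 counts per ESR1KO female, and the call was lost without any one of 12 mice. In the ESR1KO groups, no mouse lay far enough from the others in log2 CPM of a gene or of the sum to be singled out, in 22 sets of values; in sets of this size about 1 in 20 would be by chance.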

How the results depend on the processing

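Counts of called genes stayed within 1.5 times the reported ones under every alternative run: 7 to 9 between the WT sexes, 0 between the ESR1KO sexes, 4 to 5 for genotype in females, 8 to 9 in males and 5 to 8 for the difference of genotype effects, the highest with no filter on low counts. These counts pool both directions. The 5 in females included Mup17, called lower without ESR1KO female 4 (-2.21, adjusted p = 0.0477 by edgeR). Of 1139 refits of single genes, 1111 kept their direction and side of the adjusted p threshold, 19 lost it, 6 gained it and 3 changed sign. Those 3 concern Mup12 between the ESR1KO sexes (reported -0.06), positive without ESR1KO female 3, ESR1KO female 4 or ESR1KO male 2 and between -0.48 and 0.16 over all mice left out. The replicate numbers did not pair the mice: correlations of deviations for 19 same-numbered pairs ran from -0.19 to 0.14, with 1 over 0.1. With the number as a replicate block, 8, 0, 4, 8 and 6 genes were called in the same order, no different from the counts without it. Leaving out each mouse moved the log2 ratio of summed means between -5.50 and -4.98 for WT sex, -0.96 and -0.46 for ESR1KO sex, 0.85 and 1.49 for genotype in females and -3.66 and -3.22 in males. Summing every Mup row gave -2.27 for WT sex, 0.21 for ESR1KO sex (reported -0.63) and -1.15 for genotype in males, since rows such as Mup3 then add most of the counts. Without Mup7 the ratio was -4.43 for WT sex and 0.27 for genotype in females (reported 1.18). Other scalings moved the median of all genes by at most 0.06 on the log2 scale. Depth limits Mup9, with 3 to 8 counts in WT females, and also Mup1, with 15 to 37, and Mup14, with 25 to 30.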
